A study of Homo sapiens with 9 samples.

Results

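Collagens, laminins and other proteins of the extracellular matrix were followed in a human ovarian tumour line, SKOV3, after exposure to a pair of related amino sugars. The genes came from a list of 44 symbols that holds collagen chains, laminin and nidogen subunits, matrix glycoproteins and proteoglycans, and enzymes that process collagen. A gene entered when the array carried a probe set annotated to it and to no other gene, and the probe set with the highest mean was used where there were several. That rule gave 41 genes, out of 14215 genes with a probe set of their own on the array. LAMA3, LAMB3 and COL7A1 had none and were left out of the 41. Of the 41, 22 were grouped as interstitial matrix, 12 as basement membrane, 2 as other collagens (COL8A1 and COL13A1) and 5 as collagen processing.

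Total RNA came from 3 separate culture flasks in each of 3 groups, all kept for 3 days in serum-containing McCoy's 5A medium. The groups were untreated cells, cells given 50 µM peracetylated GlcNAc (Ac-GlcNAc) and cells given 50 µM peracetylated 4-deoxy-GlcNAc (Ac-4-deoxy-GlcNAc). The analog lacks the hydroxyl group at carbon 4 of the sugar. The labels name no vehicle for the untreated cells. SKOV3 is a single cell line, so the spread between flasks is that of repeated cultures and not of different tumours.

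Interstitial matrix fills the space between cells and gets its strength from fibrillar collagens, chiefly type I, whose molecules are heterotrimers of the COL1A1 and COL1A2 chains. Basement membranes are thin sheets under epithelia, built on networks of type IV collagen and of laminin trimers that nidogens link to each other. Collagen chains are hydroxylated and folded in the endoplasmic reticulum with the help of PLOD enzymes and the chaperone SERPINH1, trimmed outside the cell, and cross-linked by lysyl oxidases. In ovarian tumours much of the interstitial collagen is made by stromal fibroblasts, and carcinoma cells can make both kinds of matrix.

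Array medians lay between 6.58 and 6.65 on the log2 scale. The spread over probe sets was narrowest on untreated replicate 2 (SD 1.92), and the SD was 2.07 to 2.18 on the rest. The cell line's markers were present: ERBB2 had a mean log2 level of 12.22 in untreated cells, PAX8 10.63 and KRT8 11.19, and 7 of 8 epithelial tumour markers lay above the median level of all probe sets. The exception was WT1. Of 6 fibroblast markers outside the 41 genes, 6 lay below that median, with group means between 4.00 and 5.89, and so did all 6 endothelial markers and 4 of 5 leukocyte markers, CD68 being the exception.

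The RefSeq table of start regions held 31 of the 41 genes. It had no entry for COL1A1, COL1A2, COL3A1, COL5A2, COL6A1, COL8A1, DCN, LAMA1, LOXL2 and LUM. The regions of a few genes that the results turn on are shown here: SPARC and POSTN, which were lower with Ac-4-deoxy-GlcNAc, NID2, which was higher, and the stretch shared by COL4A1 and COL4A2, which were not called in any comparison. They are from GRCh38.p14, a later build than the authors' hg18, and stop before the first transcribed base. Capitals mark, on either strand, the CCAAT motif, the TATAAA motif and the GGGCGG motif.
SPARC (chr5:151686916-151687065, minus strand): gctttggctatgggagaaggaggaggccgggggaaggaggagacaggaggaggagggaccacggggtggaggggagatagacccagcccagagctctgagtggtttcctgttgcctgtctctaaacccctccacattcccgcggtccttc
POSTN (chr13:37598769-37598918, minus strand): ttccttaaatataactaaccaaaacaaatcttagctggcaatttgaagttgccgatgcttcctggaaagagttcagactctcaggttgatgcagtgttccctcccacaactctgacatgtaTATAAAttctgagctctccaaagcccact
NID2 (chr14:52069060-52069209, minus strand): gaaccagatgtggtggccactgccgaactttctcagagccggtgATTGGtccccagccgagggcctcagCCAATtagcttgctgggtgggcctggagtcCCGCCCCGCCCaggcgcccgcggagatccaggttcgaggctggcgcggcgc
COL4A1-COL4A2 (chr13:110307158-110307283, plus strand, read towards COL4A2): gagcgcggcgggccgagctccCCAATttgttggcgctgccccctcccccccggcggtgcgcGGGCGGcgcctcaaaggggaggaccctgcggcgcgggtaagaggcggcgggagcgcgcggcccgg

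The COL4A1 and COL4A2 genes lie head to head, and the 126 bases printed are all that separates their first transcribed bases. This stretch is rich in G and C (80.2%), with 1 CCAAT and 1 GGGCGG. The NID2 region holds 2 matches to CCAAT, 1 on each strand, and 2 overlapping matches to GGGCGG. The POSTN region is the poorest of the 4 in G and C (41.3%) and holds a TATAAA. The SPARC region holds none of these motifs, and has GGA repeated many times.

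Over the windows of 300 bases, from 250 before to 50 after the start, CCAAT on either strand was present in 10 of the 31 genes and in 35.7% of 27305 genes in the table. GGGCGG was present in 20 of the 31 and in 44.6% of all. TATAAA was present in THBS2, COL13A1, POSTN and COL6A2, 4 of the 31, and in 12.0% of all. TGANTCA with any letter at N, a looser form of the site bound by AP-1 factors, was present in POSTN alone among the 31 and in 7.8% of all. Of the 11 genes lower with Ac-4-deoxy-GlcNAc, 6 were in the table, and CCAAT was in 0 of these, GGGCGG in 3 (TGFBI, LAMB1 and BGN) and TATAAA in 1. These counts describe letters in a window and were not tested.

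With Ac-4-deoxy-GlcNAc the type I collagen chains, SPARC, biglycan and periostin were lower than in untreated cells, while COL4A1 and COL4A2, the main type IV chains, were not called. In all, 11 of the 41 genes were lower and 1 was higher at an adjusted p under 0.05 (limma, Benjamini-Hochberg over all 17859 probe sets). That is 29.3% of the genes, where 11.0% of all probe sets were called. Of the 41 genes 26.8% were lower, where 5.64% of all probe sets were, and 5.38% of all probe sets were higher. The genes were chosen with earlier results of these data known, so a share above that of all probe sets is described and not tested. Among the 22 interstitial genes 8 were lower and 0 higher. Among the 12 basement membrane genes 2 were lower and 1 higher. The 11 lower genes also include COL8A1, of the other collagens, and no processing enzyme was called. Against untreated cells with Ac-GlcNAc, 0 of the 41 were called, where 0.442% of all probe sets were, and 12 had an unadjusted p under 0.05 (26.4% of all probe sets). Without Ac-4-deoxy-GlcNAc replicate 3 the 12 calls became 6, all interstitial (0 basement membrane), and without its replicate 1 the basement membrane count was 1. With Ac-GlcNAc, 3 genes were called when untreated replicate 1 was left out and 8, of which 7 were lower, when arrays were weighted by quality. Between the compounds 2 genes were called, both lower with Ac-4-deoxy-GlcNAc, where 2.38% of all probe sets were called and 1.48% called lower. In that comparison 12 of the 41 had an unadjusted p under 0.05, against 13.6% of all probe sets. By the F test over the 3 groups 8 of the 41 differed, where 8.36% of all probe sets did, 6 of them interstitial and 2 of the basement membrane.

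**Figure D1:**
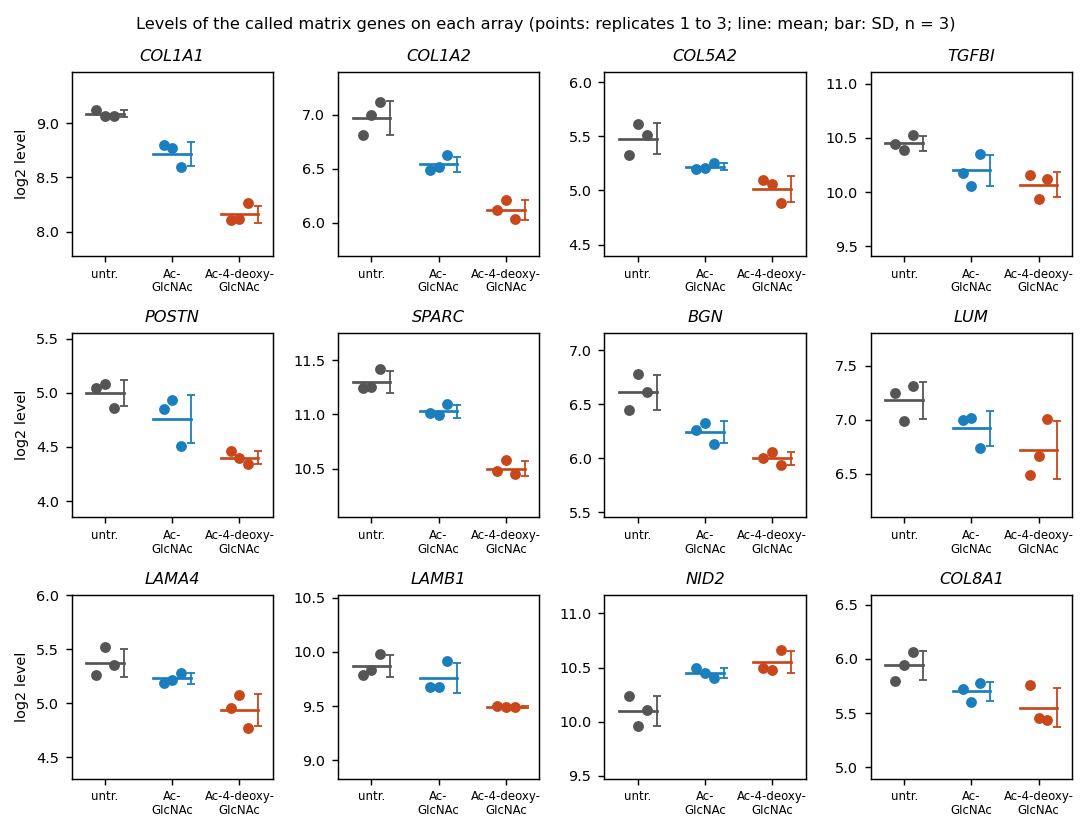
Log2 levels of the 12 genes called in any comparison, on each of the 9 arrays. Points are replicates 1 to 3 of each group, lines are group means and bars the SD (n = 3), and each panel has its own axis of the same span. COL1A1, COL1A2, COL5A2, SPARC and BGN step down from untreated to Ac-GlcNAc to Ac-4-deoxy-GlcNAc with no overlap of arrays. NID2 is higher on all 6 treated arrays than on the untreated ones.

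COL1A1, the chain present in every type I collagen molecule, had log2 levels of 9.12, 9.07 and 9.07 in untreated cells. The levels were 8.80, 8.77 and 8.60 with Ac-GlcNAc, and 8.11, 8.12 and 8.26 with Ac-4-deoxy-GlcNAc. The 3 groups did not overlap on any array, and the untreated arrays differed among themselves by no more than 0.05 (SD 0.03). The log2 difference from untreated was -0.92 with Ac-4-deoxy-GlcNAc (SE 0.09, 1.89-fold lower, adjusted p = 0.000176). With Ac-GlcNAc it was -0.36 (SE 0.09, adjusted p = 0.0847), which did not pass. Between the compounds it was -0.56 (SE 0.09, 1.47-fold lower with Ac-4-deoxy-GlcNAc, adjusted p = 0.00781).

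COL1A2, the partner chain, stood at 6.81, 7.0 and 7.12 in untreated cells, at 6.49, 6.52 and 6.63 with Ac-GlcNAc, and at 6.12, 6.21 and 6.04 with Ac-4-deoxy-GlcNAc. Its 3 groups did not overlap either, and its order matched that of COL1A1. The log2 difference was -0.85 with Ac-4-deoxy-GlcNAc (SE 0.10, adjusted p = 0.000576) and -0.43 with Ac-GlcNAc (SE 0.10, adjusted p = 0.0761). Between the compounds it was -0.42 (95% interval -0.64 to -0.20, adjusted p = 0.0502), just outside the threshold. It passed in 5 of 9 other settings (cyclic loess, array weights, trend and robust options, the 6 compared arrays alone and probe sets above the 25th percentile), and in 0 of the 6 fits that left out an array of either compound. A further probe set, shared with PNLIP, carries the COL1A2 symbol at a mean of 3.99 and was not used.

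The other fibrillar collagens differed less. COL5A2, a chain of type V collagen, which co-assembles with type I, had levels of 5.33, 5.61 and 5.51 in untreated cells against 5.10, 5.06 and 4.88 with Ac-4-deoxy-GlcNAc. Those with Ac-GlcNAc, 5.20, 5.21 and 5.25, lay between. It fell by 0.47 on the log2 scale (SE 0.10, adjusted p = 0.0131). Leaving out Ac-4-deoxy-GlcNAc replicate 3 ended this call (adjusted p = 0.0682). With Ac-GlcNAc its difference was -0.26 (adjusted p = 0.136). COL5A1, the main type V chain, differed by -0.14 with Ac-4-deoxy-GlcNAc (95% interval -0.36 to 0.08) and by -0.06 with Ac-GlcNAc.

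COL3A1, the type III chain, differed by -0.31 with Ac-4-deoxy-GlcNAc and by -0.30 with Ac-GlcNAc (adjusted p = 0.101 and 0.145). Its untreated arrays ranged from 5.12 to 5.61, with replicate 2 the highest, and overlapped with those of Ac-4-deoxy-GlcNAc. COL3A1 and COL5A2 are neighbours on chromosome 2, and COL5A2 alone of the pair was called. Without untreated replicate 1, COL3A1 was called lower with Ac-4-deoxy-GlcNAc as well (adjusted p = 0.0397). A test of the difference between these 2 genes was not run.

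Of the type VI and type XII chains, 0 of 4 were called in any comparison. COL6A1 and COL6A2, neighbours on chromosome 21, differed from untreated by -0.01 (95% interval -0.21 to 0.19) and 0.04 (-0.17 to 0.25) with Ac-4-deoxy-GlcNAc. COL6A3, the large chain of the same molecule, differed by -0.27 with Ac-4-deoxy-GlcNAc and by -0.30 with Ac-GlcNAc (adjusted p = 0.127 and 0.134). Its untreated levels were 4.88, 5.22 and 4.96, with replicate 2 again the highest. COL12A1, which decorates fibrils, stood at 11.00, 11.06 and 11.16 in untreated cells and at 11.34, 11.29 and 11.20 with Ac-4-deoxy-GlcNAc, a difference of 0.20 (adjusted p = 0.167). The intervals for COL6A1, COL6A2 and COL12A1 leave out a fall as large as that of either type I chain.

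SPARC, a secreted protein that binds collagen and aids its assembly into fibrils, had log2 levels of 11.24, 11.25 and 11.42 in untreated cells, 11.01, 10.99 and 11.10 with Ac-GlcNAc, and 10.48, 10.58 and 10.45 with Ac-4-deoxy-GlcNAc. As for COL1A1, no arrays of different groups overlapped. The difference from untreated was -0.80 with Ac-4-deoxy-GlcNAc (SE 0.09, 1.74-fold lower, adjusted p = 0.000488) and -0.27 with Ac-GlcNAc (SE 0.09, adjusted p = 0.113). Between the compounds it was -0.53 (SE 0.09, adjusted p = 0.0101). The calls of COL1A1 and SPARC between the compounds were each lost without 1 array: COL1A1 without Ac-GlcNAc replicate 1 (adjusted p = 0.0525) and SPARC without Ac-GlcNAc replicate 3 (adjusted p = 0.0523).

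POSTN, periostin, which tethers matrix proteins and cross-linking enzymes to collagen, had levels of 5.04, 5.08 and 4.86 in untreated cells. They were 4.85, 4.93 and 4.51 with Ac-GlcNAc and 4.46, 4.40 and 4.34 with Ac-4-deoxy-GlcNAc. The Ac-4-deoxy-GlcNAc arrays lay below all others, and those of Ac-GlcNAc overlapped with untreated. POSTN fell by 0.60 with Ac-4-deoxy-GlcNAc (SE 0.12, adjusted p = 0.00784). It lies in the lowest quartile of probe sets by mean level, where the median over all probe sets was -0.18 with this compound. The fits limited by level did not include it. Between the compounds the difference was -0.36 (95% interval -0.61 to -0.11, adjusted p = 0.137).

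TGFBI, an adhesion protein induced by TGF-beta, had levels of 10.44, 10.39 and 10.53 in untreated cells and 10.16, 9.94 and 10.12 with Ac-4-deoxy-GlcNAc. It fell by 0.38 (SE 0.10, adjusted p = 0.0345), and the call held in 2 of the 6 fits that left out an array of either group. Its levels with Ac-GlcNAc, 10.18, 10.06 and 10.35, overlapped with those of Ac-4-deoxy-GlcNAc.

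The 6 other interstitial glycoproteins were not called. FN1, fibronectin, stood at 11.81, 11.79 and 11.91 in untreated cells, 11.91, 11.92 and 12.04 with Ac-GlcNAc and 11.69, 11.67 and 11.64 with Ac-4-deoxy-GlcNAc. Its difference was -0.17 with Ac-4-deoxy-GlcNAc (95% interval -0.36 to 0.02), 0.12 with Ac-GlcNAc (-0.07 to 0.31) and -0.29 between the compounds (adjusted p = 0.116). A further FN1 probe set, with a mean of 8.04, gave -0.32 with Ac-4-deoxy-GlcNAc and -0.31 with Ac-GlcNAc, so the probe sets of FN1 differ in sign for Ac-GlcNAc. FBN1, the main microfibril protein, differed by -0.28 with Ac-4-deoxy-GlcNAc (adjusted p = 0.0799), and FBLN1, fibulin 1, by 0.00 with either compound (95% interval -0.19 to 0.19 for each). VTN and TNC differed by -0.16 and -0.03 with Ac-4-deoxy-GlcNAc. THBS2, an antiangiogenic matrix protein, differed by -0.28 with each compound (adjusted p = 0.117 and 0.156).

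Of 4 proteoglycans, the small leucine-rich BGN and LUM were lower with Ac-4-deoxy-GlcNAc. BGN, biglycan, had levels of 6.45, 6.78 and 6.61 in untreated cells, 6.26, 6.33 and 6.13 with Ac-GlcNAc and 6.0, 6.06 and 5.94 with Ac-4-deoxy-GlcNAc, with no overlap among the groups. It fell by 0.61 (SE 0.10, 1.53-fold, adjusted p = 0.00411), and its difference with Ac-GlcNAc was -0.37 (adjusted p = 0.0891). LUM, lumican, fell by 0.46 (SE 0.14, adjusted p = 0.0474). The call held in 2 of the 6 fits that left out an array of either group (adjusted p up to 0.136) and was lost on the 6 compared arrays alone. LUM is the one called gene whose arrays overlapped: untreated levels were 7.25, 6.99 and 7.31, and those with Ac-4-deoxy-GlcNAc 6.49, 6.67 and 7.01. With Ac-GlcNAc they were 7.0, 7.02 and 6.74.

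DCN, decorin, which lies next to LUM on chromosome 12, differed by -0.31 with Ac-4-deoxy-GlcNAc and by -0.38 with Ac-GlcNAc (adjusted p = 0.152 and 0.127). Untreated replicate 2 stood apart for DCN, at 4.91 against 4.35 and 4.32. VCAN, the large proteoglycan versican, differed by -0.13 (95% interval -0.34 to 0.08) with Ac-4-deoxy-GlcNAc and by -0.01 with Ac-GlcNAc.

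**Figure D2:**
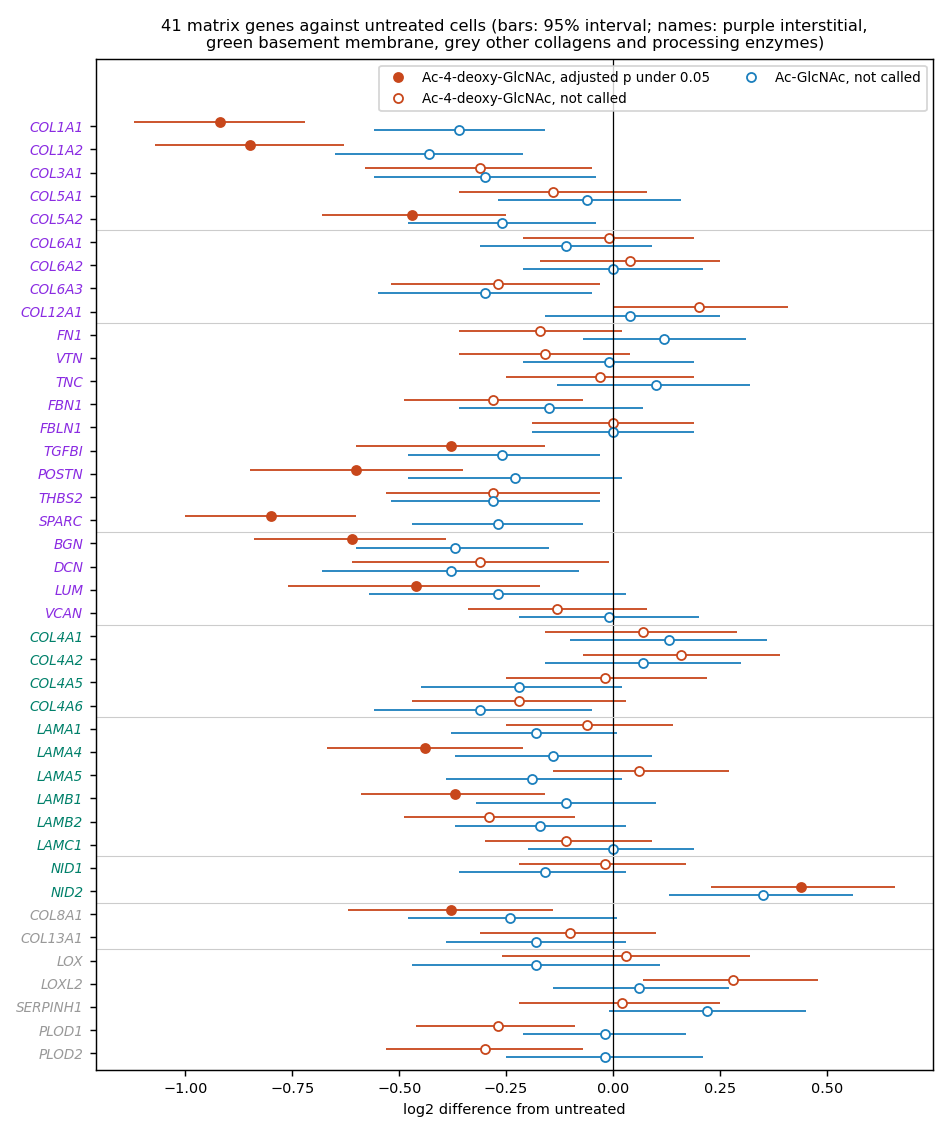
Log2 difference from untreated for each of the 41 genes, with its 95% interval from limma, in orange for Ac-4-deoxy-GlcNAc and in blue for Ac-GlcNAc. Filled points passed an adjusted p of 0.05. The filled points are 12 and all orange, and 11 of them lie left of 0, with NID2 the one to the right at 0.44.

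The type IV collagen chains, which form the basement membrane network, gave 0 calls in the 4 genes and 3 comparisons, and 0 of the 4 had an unadjusted p under 0.05 with Ac-4-deoxy-GlcNAc. COL4A1 had levels of 8.86, 8.55 and 8.75 in untreated cells, 8.92, 8.83 and 8.80 with Ac-GlcNAc and 8.72, 8.72 and 8.92 with Ac-4-deoxy-GlcNAc. COL4A2 had 9.28, 8.97 and 9.17, then 9.25, 9.24 and 9.15, then 9.23, 9.22 and 9.45. The groups overlapped for both genes. With Ac-4-deoxy-GlcNAc their differences were 0.07 (95% interval -0.16 to 0.29) and 0.16 (-0.07 to 0.39), so a fall of the size seen in COL1A1 or COL1A2 lies outside both intervals. Among untreated arrays both genes were lowest on replicate 2, the array with the narrowest spread over probe sets. In the quartile of probe sets with the highest mean level, the median of that array was 9.28, against 9.4 to 9.52 on the others. The pair, whose shared start region is printed above, was not called in any comparison.

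COL4A5 and COL4A6, a neighbouring pair on the X chromosome, encode chains found in specialised basement membranes. COL4A5 differed by -0.02 with Ac-4-deoxy-GlcNAc and by -0.22 with Ac-GlcNAc (adjusted p = 0.931 and 0.216). COL4A6 differed by -0.22 and -0.31 (adjusted p = 0.213 and 0.134), with untreated levels of 4.58, 5.03 and 4.66.

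Among 6 laminin subunits, LAMA4 and LAMB1 were lower with Ac-4-deoxy-GlcNAc. LAMA4, an alpha subunit of vascular and mesenchymal laminins, had levels of 5.26, 5.52 and 5.35 in untreated cells and 4.96, 5.08 and 4.77 with Ac-4-deoxy-GlcNAc, and fell by 0.44 (SE 0.11, adjusted p = 0.0219). LAMB1, a widely used beta subunit, had 9.79, 9.83 and 9.98 against 9.50, 9.49 and 9.49, and fell by 0.37 (SE 0.10, adjusted p = 0.0304). With Ac-GlcNAc the levels were 5.19, 5.22 and 5.28 for LAMA4 and 9.68, 9.68 and 9.92 for LAMB1. The arrays of untreated and Ac-4-deoxy-GlcNAc did not overlap for either gene. Leaving out an array of either group kept the call in 3 of 6 fits for LAMA4 and 2 of 6 for LAMB1.

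LAMC1, the gamma subunit shared by most laminins, stood at 11.13, 11.22 and 11.28 in untreated cells, 11.15, 11.15 and 11.32 with Ac-GlcNAc and 11.09, 11.15 and 11.07 with Ac-4-deoxy-GlcNAc. Its groups overlapped, and the difference with Ac-4-deoxy-GlcNAc was -0.11 (95% interval -0.30 to 0.09). LAMB2 differed by -0.29 (adjusted p = 0.0611). LAMA5, the alpha subunit that partners LAMB1 or LAMB2 in epithelial laminins, differed by 0.06, and LAMA1 by -0.06. Between the compounds LAMA5 differed by 0.25 (95% interval 0.04 to 0.46, adjusted p = 0.241).

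NID2, nidogen 2, a linker of laminin and collagen IV networks, was the single gene of the 41 to rise. It had levels of 10.24, 9.96 and 10.11 in untreated cells, 10.50, 10.45 and 10.40 with Ac-GlcNAc and 10.50, 10.48 and 10.66 with Ac-4-deoxy-GlcNAc. All treated arrays were above all untreated ones, and the compounds overlapped. The difference was 0.44 with Ac-4-deoxy-GlcNAc (SE 0.10, 1.36-fold, adjusted p = 0.0158) and 0.35 with Ac-GlcNAc (SE 0.10, adjusted p = 0.0902). The call with Ac-4-deoxy-GlcNAc was lost when its replicate 3 was left out. NID1, its paralog, differed by -0.02 with Ac-4-deoxy-GlcNAc (95% interval -0.22 to 0.17) and by -0.16 with Ac-GlcNAc.

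COL8A1, a network-forming collagen, fell by 0.38 with Ac-4-deoxy-GlcNAc (SE 0.11, adjusted p = 0.0441), from 5.80, 5.94 and 6.06 to 5.76, 5.45 and 5.44. Its levels with Ac-GlcNAc were 5.72, 5.60 and 5.78. The gap between the nearest arrays of the groups was narrow, and the call held in 2 of the 6 fits with an array of either group left out. It was also lost with cyclic loess, median centring and quantile normalization. COL13A1, a membrane-spanning collagen, differed by -0.10 with Ac-4-deoxy-GlcNAc and -0.18 with Ac-GlcNAc.

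None of the 5 processing genes was called in any comparison. SERPINH1, the collagen chaperone HSP47, differed by 0.02 with Ac-4-deoxy-GlcNAc (95% interval -0.22 to 0.25) and by 0.22 with Ac-GlcNAc (-0.01 to 0.45). The lysyl hydroxylases PLOD1 and PLOD2 differed by -0.27 and -0.30 with Ac-4-deoxy-GlcNAc (adjusted p = 0.0594 and 0.0841) and by -0.02 each with Ac-GlcNAc. Their arrays with Ac-4-deoxy-GlcNAc, 10.77, 10.87 and 10.80 for PLOD1 and 9.45, 9.52 and 9.23 for PLOD2, lay below all others. The cross-linking oxidases LOX and LOXL2 differed by 0.03 and 0.28 (adjusted p = 0.901 and 0.075). With 5 processing genes, 3 had an unadjusted p under 0.05 with Ac-4-deoxy-GlcNAc, where 31.2% of all probe sets did.

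Set side by side, interstitial genes had a median log2 difference of -0.281 with Ac-4-deoxy-GlcNAc and basement membrane genes -0.040, against -0.051 over all probe sets. With Ac-GlcNAc the medians were -0.244 and -0.151, against -0.017, and both comparisons use the same untreated arrays. Between the compounds they were -0.125 and 0.088, against 0.003. Cyclic loess and quantile normalization brought the interstitial medians nearer 0, though they added calls with Ac-4-deoxy-GlcNAc, here and over all probe sets. With cyclic loess the interstitial medians were -0.193, -0.138 and -0.078 in these 3 comparisons, beside -0.013, -0.113 and 0.071 for the basement membrane. With quantile normalization they were -0.191, -0.133 and -0.079, beside -0.016, -0.097 and 0.054. Values below 0 were seen in 20 of 22 interstitial and 8 of 12 basement membrane genes with Ac-4-deoxy-GlcNAc, where 58.1% of all probe sets were below 0. With Ac-GlcNAc the counts were 19 and 9 (52.7% of all probe sets), and between the compounds 17 and 5 (49.1%). Within the interstitial class the fibrillar collagens had a median of -0.467, the proteoglycans -0.386, the glycoproteins -0.278 and the type VI and XII chains 0.012. Within the basement membrane class it was -0.199 for laminins and 0.026 for type IV chains. Further genes of these classes, counted below from other lists, had medians of -0.082 (24 interstitial) and -0.126 (9 basement membrane) with Ac-4-deoxy-GlcNAc. With Ac-GlcNAc their medians were -0.124 and -0.157, and between the compounds 0.066 and 0.115. Between the compounds 5 of the 24 and 3 of the 9 were below 0. Against untreated the further interstitial genes thus did not have the lower median, with either compound. These medians describe the genes listed and carry no test of one class against another.

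By array, the interstitial genes' median deviation from their untreated means was -0.17, -0.30 and -0.27 with Ac-4-deoxy-GlcNAc, and -0.17, -0.13 and -0.23 with Ac-GlcNAc. For basement membrane genes it was -0.08, -0.04 and -0.11, and -0.18, -0.14 and -0.09. On the Ac-4-deoxy-GlcNAc arrays the interstitial median lay below the basement membrane median each time, while on Ac-GlcNAc replicates 1 and 2 the pair stood within 0.01 of each other. The interstitial minus basement membrane difference of medians with Ac-GlcNAc, -0.093, turned to 0.023 without Ac-GlcNAc replicate 3.

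**Figure D3:**
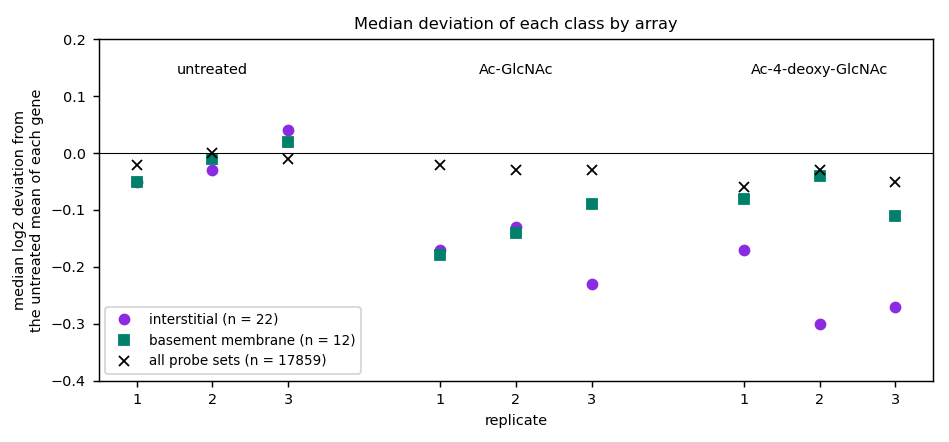
Median log2 deviation of 22 interstitial genes (circles), 12 basement membrane genes (squares) and all 17859 probe sets (crosses) from each gene's mean over the untreated arrays, for each replicate of the 3 groups. Circles lie below squares with Ac-4-deoxy-GlcNAc (-0.17 to -0.30 against -0.04 to -0.11), and all probe sets stay between -0.06 and 0.00.

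Arrays did not overlap between Ac-4-deoxy-GlcNAc and untreated for 19 of the 41 genes (46.3%, against 32.1% of all probe sets). Of these 16 were lower, where 19.1% of all probe sets had no overlap and were lower. With Ac-GlcNAc this held for 21 genes (51.2%, against 32.3%), 18 of them lower (19.3% of all probe sets), although 0 were called. Between the compounds it held for 16 genes (39.0%, against 21.2%), 12 of them lower (11.6%).

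The size of a difference also went with the level of signal over the array as a whole. In the lowest quartile of probe sets by mean level, the median over all probe sets was -0.18 with Ac-4-deoxy-GlcNAc and -0.23 with Ac-GlcNAc, and in the highest quartile 0.06 and 0.11. Untreated replicate 2 had a median of 4.65 in the lowest quartile, against 4.16 to 4.36 on the other arrays. The 7 genes of the list in that quartile (COL6A3, VTN, POSTN, DCN, COL4A6, LAMA1 and COL13A1) had medians of -0.22 and -0.23, close to those of the quartile, and of these only POSTN was called. The second quartile held 9 genes, with medians of -0.38 and -0.26 against -0.09 and -0.09 over all probe sets. Of these, 5 were lower with Ac-4-deoxy-GlcNAc (COL1A2, COL5A2, BGN, LAMA4 and COL8A1). The third held 5 genes, with medians of -0.02 and -0.11, and 1 was lower (LUM). In the highest quartile, 20 genes had medians of -0.12 and -0.02, with 4 lower (COL1A1, SPARC, TGFBI and LAMB1) and 1 higher (NID2) with Ac-4-deoxy-GlcNAc. The interstitial class had 10 of 22 genes in the lower 2 quartiles and the basement membrane class 4 of 12. Above the median level, where 12 interstitial and 8 basement membrane genes remained, the count called with Ac-4-deoxy-GlcNAc was 4 and 3.

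**Figure D4:**
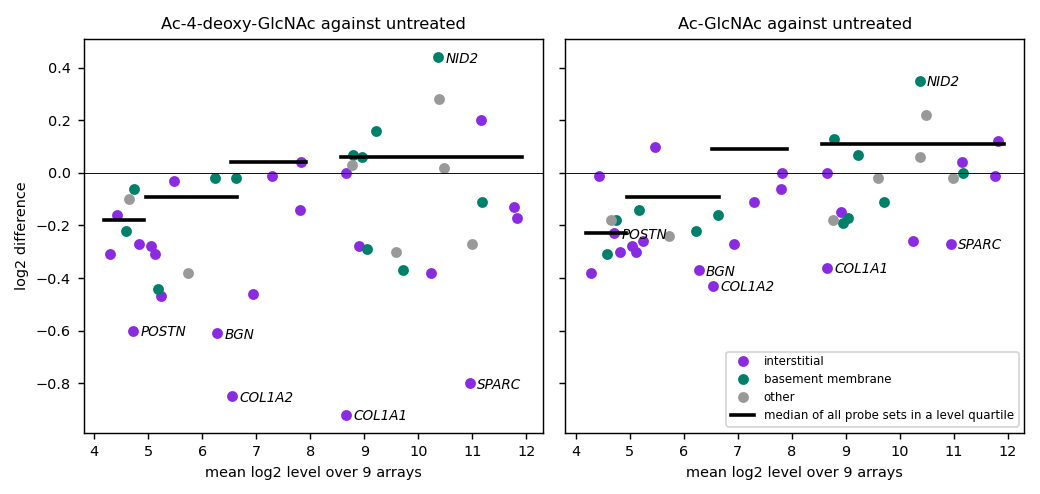
Log2 difference from untreated of the 41 genes against their mean log2 level over 9 arrays, for Ac-4-deoxy-GlcNAc (left) and Ac-GlcNAc (right). Purple points are interstitial, green basement membrane and grey other genes, and black lines are the medians of all probe sets in each quartile of mean level, drawn over the span of the listed genes in it. The lines rise from -0.18 to 0.06 and from -0.23 to 0.11, and COL1A1, COL1A2, SPARC and BGN lie far below them with Ac-4-deoxy-GlcNAc.

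Markers of other cell types were read beside the interstitial genes. The mean over 6 fibroblast markers outside the list ran from 4.87 to 5.14 on untreated arrays, 4.70 to 4.79 with Ac-GlcNAc and 4.72 to 4.85 with Ac-4-deoxy-GlcNAc. Of these, FAP was called lower with Ac-4-deoxy-GlcNAc (-0.40, adjusted p = 0.0396), and PDGFRB, THY1, DPT, PDPN and TCF21 were not. With that compound 5 of the 6 were below 0, with a median of -0.226 and a range from -0.40 (FAP) to 0.18 (THY1). With Ac-GlcNAc 6 of 6 were below 0, with a median of -0.197. All 6 were below the median level, where the medians over all probe sets were below 0 as well, and their part in the result was not tested. Among the other markers with Ac-4-deoxy-GlcNAc, the epithelial keratins KRT7 and KRT19 were lower (-0.46 and -0.49, adjusted p = 0.0287 and 0.0122), 2 of 8 in that list. CD68 was lower (-0.37, adjusted p = 0.0455), 1 of 5 leukocyte markers, and PECAM1 was higher (0.41, adjusted p = 0.0178), 1 of 6 endothelial markers. Against Ac-GlcNAc, KDR was higher (0.36, adjusted p = 0.0497). The part of these in the result was not tested either. The RNA is from bulk cultures, in which fewer cells of a kind and less RNA per cell cannot be told apart.

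Between the compounds, which were given at the same dose for the same time, COL1A1 and SPARC were called and 39 genes were not. This was the only pair of compounds, with p-values adjusted over all probe sets. For BGN the difference was -0.24 (95% interval -0.46 to -0.02, adjusted p = 0.323), for COL5A2 -0.21 (-0.42 to 0.01), for TGFBI -0.12 (-0.35 to 0.10) and for LUM -0.20 (-0.49 to 0.10). These intervals are wide enough to hold both no difference, or nearly none, and a sizeable fall, so the values do not show that the compounds act alike on these genes. For NID2 the interval was -0.12 to 0.31. For LAMA4 and LAMB1 it was -0.52 to -0.07 and -0.48 to -0.05, with adjusted p = 0.189 and 0.216.

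**Figure D5:**
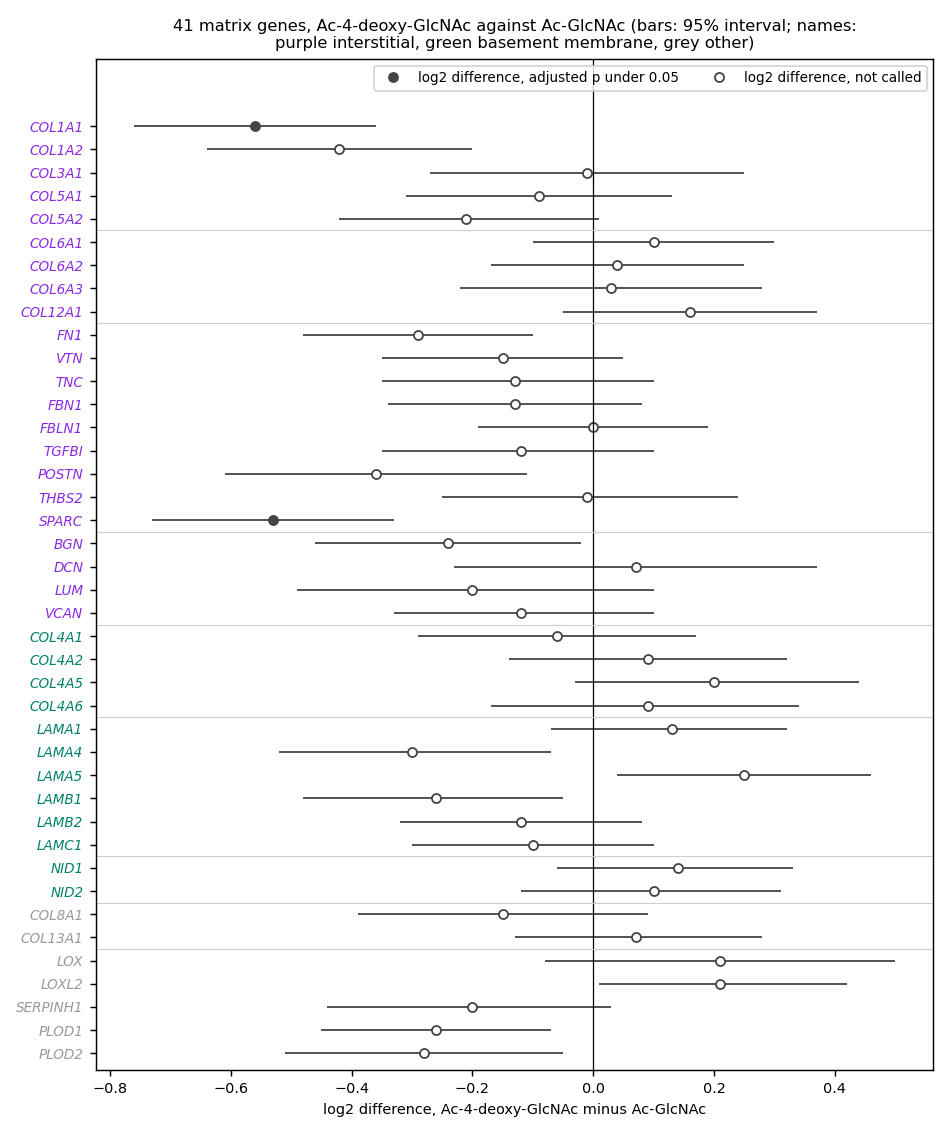
Log2 difference between Ac-4-deoxy-GlcNAc and Ac-GlcNAc for each of the 41 genes, with its 95% interval from limma. Filled points passed an adjusted p of 0.05: COL1A1 at -0.56 and SPARC at -0.53.

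Other genes of the same systems were counted from lists of 88 symbols, 72 of them measured. The shares called against untreated with Ac-4-deoxy-GlcNAc were 12.5% of the further interstitial genes, 22.2% of the basement membrane genes, 20.0% of the processing genes and 26.3% of the receptors. These stand beside 11.0% of all probe sets (5.64% lower and 5.38% higher), and the interstitial share is near it. Ac-4-deoxy-GlcNAc gave 2 lower calls and 1 higher call among 24 further interstitial genes: MATN3, matrilin 3 (-0.83, SE 0.20), LTBP1, which holds latent TGF-beta in the matrix (-0.55, SE 0.10), and FBLN5, an elastic fibre protein (0.61, SE 0.12). Of 9 further basement membrane genes, 2 were higher and 0 lower: FRAS1 (0.58, SE 0.11) and the type IV chain COL4A3 (0.50, SE 0.12). Against Ac-GlcNAc, FRAS1 was higher as well (0.74, SE 0.11, adjusted p = 0.00409), and so was FBN2, a microfibril protein (0.43, adjusted p = 0.0389).

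Among 20 further processing genes Ac-4-deoxy-GlcNAc gave 3 lower calls and 1 higher call. TLL1 and BMP1, proteinases that trim the C-terminal ends of fibrillar procollagens, differed by -0.71 (SE 0.11, adjusted p = 0.00316) and -0.41 (SE 0.09, adjusted p = 0.0122). PCOLCE, which enhances that cleavage, differed by -0.46 (SE 0.11, adjusted p = 0.0241). ADAMTS14, an N-terminal procollagen proteinase, was higher by 0.43 (SE 0.10), and by 0.47 against Ac-GlcNAc (adjusted p = 0.0221). TLL1 was also lower with Ac-GlcNAc (-0.57, adjusted p = 0.0494), the 1 call among the 72 genes in that comparison.

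Among 19 matrix receptors there were 3 lower and 2 higher calls against untreated with the same compound. ITGB4, the beta subunit of a laminin receptor, fell by 1.09 (SE 0.09), and was lower against Ac-GlcNAc too (-0.78, adjusted p = 0.00102). The collagen receptors of the discoidin domain family moved in opposite directions: DDR1 fell by 0.39 (SE 0.09, adjusted p = 0.0174) and DDR2 rose by 0.52 (SE 0.11, adjusted p = 0.0127). DDR2 was also higher than with Ac-GlcNAc (0.61, adjusted p = 0.0132), and its symbol stands on a further probe set shared with other genes. ITGB6, a fibronectin receptor subunit, fell by 0.88 (SE 0.11), and CD44, a hyaluronan receptor, rose by 0.36 (adjusted p = 0.0499). With Ac-GlcNAc the smallest p-values were those of ITGB6 (-0.45, adjusted p = 0.0812) and ITGB4 (-0.31, adjusted p = 0.0949). In the other lists they were those of COL15A1 (-0.32), FREM2 (-0.24), MATN3 (-0.75) and COL14A1 (-0.41), none of which passed.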

How the data were processed

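The authors deposited 1 log2 value per probe set and array for 9 arrays, for which the submitters' processing notes name RMA, Partek and hg18. Versions, settings and filters are not given in the sources used here, and no scanner files were used, so signal over background could not be assessed. Of 17859 probe sets, 14413 carry 1 gene in the platform annotation, 2405 several and 1041 none. Symbols were updated by gene identifier to RefSeq (GRCh38.p14).

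The deposited values were fitted with limma 3.58.1 in R 4.3.3 (lmFit, eBayes) over all 9 arrays, with a mean for each group and no other term (residual degrees of freedom: 6). Contrasts were two-sided and adjusted with Benjamini-Hochberg over all probe sets, with 0.05 as threshold. The fit was checked on simulated arrays. The number of arrays limits precision: the median SE of a log2 difference was 0.110. No slide or scan batch was given in the labels.

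The genes, classes and lists were chosen with earlier results of these data known. Values on each array are given for called genes and for COL1A1, COL1A2, COL4A1, COL4A2, FN1 and LAMC1, and in part for others whose arrays are described. Of the other lists, up to 5 called genes are named by size, or 2 by p where none was called. Deviations of same-numbered replicates from their group means had correlations from -0.24 to 0.37. They were 0.14, 0.05 and 0.37 between untreated and Ac-GlcNAc, -0.24, 0.05 and 0.14 between untreated and Ac-4-deoxy-GlcNAc, and -0.06, -0.08 and -0.11 between the compounds. Differently numbered replicates were not set beside them, so these values do not settle whether the numbers are pairs. The numbers were not taken as pairs, and counts with a replicate block are given below.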

Additional observations from a re-analysis of the deposited data

How the results depend on the processing

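COL1A1, COL1A2, SPARC and BGN stayed lower with Ac-4-deoxy-GlcNAc than in untreated cells in every setting in which they were tested. POSTN, which the fits limited by level left out, did so in all but the one that added each array's SD as a covariate. The count of 12 was 7 on the 6 compared arrays alone, 5 with that covariate (8 interstitial became 5, 3 basement membrane became 0) and 7 without the pair of Ac-4-deoxy-GlcNAc replicate 1 and untreated replicate 2 (0 basement membrane). The count rose to 16 with cyclic loess and 15 with quantile normalization. Over all probe sets 2265 and 2204 were called with these scalings, against 1968. The count was 14 with trend and robust options and with array weights, and 13 above the 25th percentile of level. With median centring it was 11, and above the median level 8. With 1 array left out the count was 6 to 13, the lowest without Ac-4-deoxy-GlcNAc replicate 3. The interstitial count was 6 to 8 with 1 array left out, and 4 above the median level. With cyclic loess it was 10, and with quantile normalization and with array weights 9. The basement membrane count was 1 on the 6 arrays alone and 0 to 3 with 1 array left out (1 without Ac-4-deoxy-GlcNAc replicate 1, 0 without replicate 3). With cyclic loess, with quantile normalization and above the 25th percentile of level it was 4. The interstitial minus basement membrane difference of medians, -0.240, was -0.163 with the covariate and -0.278 to -0.167 with 1 array left out.

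With Ac-GlcNAc, 1 gene was called with cyclic loess (COL1A1, interstitial), 8 with array weights (7 lower; 6 interstitial, 1 basement membrane) and 0 to 3 with 1 array left out (0 to 2 interstitial, 0 to 1 basement membrane; 3 without untreated replicate 1). The class difference was -0.011 with the covariate and -0.113 to 0.023 with 1 array left out. Between the compounds 4 genes, all interstitial, were called with trend and robust options and 5 with array weights, and 1 to 3 with 1 array left out (1 without Ac-GlcNAc replicate 1 or 3). The class difference was -0.133 with quantile normalization, -0.139 and -0.133 above the 25th and 50th percentile of level, and -0.235 to -0.167 with 1 array left out. Of the 41 genes, 8 differed among the 3 groups by the F test. That count was 13 with cyclic loess and with quantile normalization, 16 with array weights, 5 with the covariate, 4 without the 2 arrays named above and 4 to 9 with 1 array left out (4 without Ac-4-deoxy-GlcNAc replicate 3, 5 without untreated replicate 2 or 3, any 1 Ac-GlcNAc array or Ac-4-deoxy-GlcNAc replicate 1). The causes were not tested.

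With the replicate block the counts were 12, 0 and 2, of the same genes as without it, and 8 by the F test. The alternative of counting COL7A1 with the basement membrane genes was not run, since it had no probe set of its own. A probe set that COL7A1 shares with MIR711 was lower with Ac-4-deoxy-GlcNAc (-0.50, SE 0.09, adjusted p = 0.00694). That of LAMB3, shared with MIR4260, was not called (0.29, SE 0.09, adjusted p = 0.0575). No gene changed direction where it was called. The deposited values give no signal over background, so how far low levels limit these differences is unknown.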
